A study of Mus musculus with 16 samples.

Results

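Wt1 and its antisense partner Wt1os were followed probe set by probe set in mouse embryonic glomeruli, the structures that filter blood in the kidney. The members were every row whose platform annotation names either gene. Wt1 has 20 probe sets at the exon level and 1 transcript cluster at the gene level, and Wt1os has 6 probe sets and 3 transcript clusters, out of 375483 probe sets and 93623 clusters in all. The exon-level annotation lists Wt1os under its older name AI314831, which was updated through RefSeq. The study compared wt1(+KTS) mutants, which the labels also call Frasier (n = 4), with wild-type embryos (n = 4). All embryos were at stage E18.5, shortly before birth, and on a mixed C57Bl6 and DBA2 background. Glomeruli were collected with magnetic beads, and their RNA was hybridised to Affymetrix exon arrays. The 16 deposited columns are an exon-level and a gene-level summary of the same 8 arrays, so both levels show the same embryos.

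Several facts limit the model. Zygosity, litter and sex of the embryos are not given in the labels. Each sample code ends in a letter of unstated meaning that never occurs in both genotypes, so genotype and letter cannot be told apart. Mutant arrays correlated with each other at 0.938 to 0.960 over all clusters, wild-type arrays at 0.876 to 0.946, and wild-type replicate 4 stood apart at 0.869 to 0.918 to every other array. Of 7 podocyte markers measured, all lay in the upper part of the gene-level table, and Nphs1, the slit diaphragm protein nephrin, lay above 91.0% of all clusters. The 8 proximal tubule markers lay above 52.3% to 99.7% of clusters, so a high position is not particular to podocytes. Podocytes are the epithelial cells of the filter.

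WT1 is a zinc finger transcription factor that stays on in podocytes throughout life. Alternative splicing places or omits the amino acids lysine, threonine and serine (KTS) between its last zinc fingers; the form without them is known mainly as a DNA-binding regulator of transcription, and the form with them has been linked to RNA. In Frasier syndrome, after which these mutants are named, the form with KTS is reduced. Wt1os is a long non-coding RNA read from the opposite strand, and human WT1 has an antisense transcript as well.

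The RefSeq starts of Wt1os and Wt1 on chromosome 2 point away from each other with 18 bases between them. That stretch is shown because it lies at the start of both genes. It lies at chr2:105126461-105126528 on the minus strand of GRCm38.p6, the build of the RefSeq table. The 18 bases between the starts are in capitals and the first 50 transcribed bases of Wt1os follow in lower case.
Wt1os start region: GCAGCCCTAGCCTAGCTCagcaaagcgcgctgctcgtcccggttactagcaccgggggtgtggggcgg
The 300-base window of the RefSeq table around the Wt1os start has a GC content of 66.7%, against a median of 52.7% over 32851 such windows. The WT1 and EGR type motif GCGNGGGNG, searched on both strands, had 0 matches in it. Of all windows 12.3% held a match, and of the 2586 windows within 2 percentage points of its GC content 28.6% did.

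Wt1os rose in the mutants while no change of Wt1 was detected. In the Wt1os cluster of highest signal, 6889376, the log2 signal was 8.85, 8.65, 8.79 and 8.75 in the mutants, against 7.84, 7.82, 8.06 and 8.01 in the wild type. Every mutant embryo lay above every wild-type embryo, and the spread within each genotype was small against the gap. The means were 8.76 ± 0.0821 in the mutants and 7.93 ± 0.12 in the wild type (SD, n = 4 each). The difference of 0.83 ± 0.11 on the log2 scale (SE) corresponds to a 1.78-fold rise, with a 95% interval of 1.49-fold to 2.11-fold (limma, Benjamini-Hochberg adjusted p = 0.0125). The exact permutation test over the arrays gave p = 0.0286, two-sided, which is the smallest that 4 against 4 allows. The call was lost, at nearly the same size, without mutant replicate 3 (0.82, adjusted p = 0.052) and without wild-type replicate 2 (0.79, adjusted p = 0.0544).

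The other Wt1os clusters moved the same way. Cluster 6889371 stood at 7.65, 7.86, 8.13 and 7.14 in the mutants and at 6.03, 6.16, 6.59 and 6.55 in the wild type. The genotypes did not overlap, and the mutants spread more widely than the wild type. It rose 2.57-fold (log2 1.36 ± 0.22 SE, limma adjusted p = 0.0275). That call was kept only without mutant replicate 4 or without wild-type replicates 3 or 4, and was lost without any of mutant replicates 1 to 3 or wild-type replicates 1 and 2 (adjusted p 0.0762 to 0.0975). It was also lost with the replicate number as a block (0.0797) and with the code letter as a random block (0.101). This cluster holds the same 8 values as probe set 4437524 below, so they are 1 measurement. Cluster 6889370 stood at 7.54, 7.47, 7.56 and 7.48 in the mutants and at 7.18, 6.96, 7.28 and 7.08 in the wild type. Its genotypes did not overlap either, but the difference of 0.39 ± 0.11 (SE) did not pass (limma adjusted p = 0.163); it passed when only clusters with 1 symbol were tested (0.0297). So 2 of 3 clusters of Wt1os were called higher, where limma called 0.336% of all clusters and 0.826% of clusters with 1 symbol higher. All 3 were higher without overlap, as were 4.79% of all clusters, while 4.74% were lower without overlap.

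**Figure D1:**
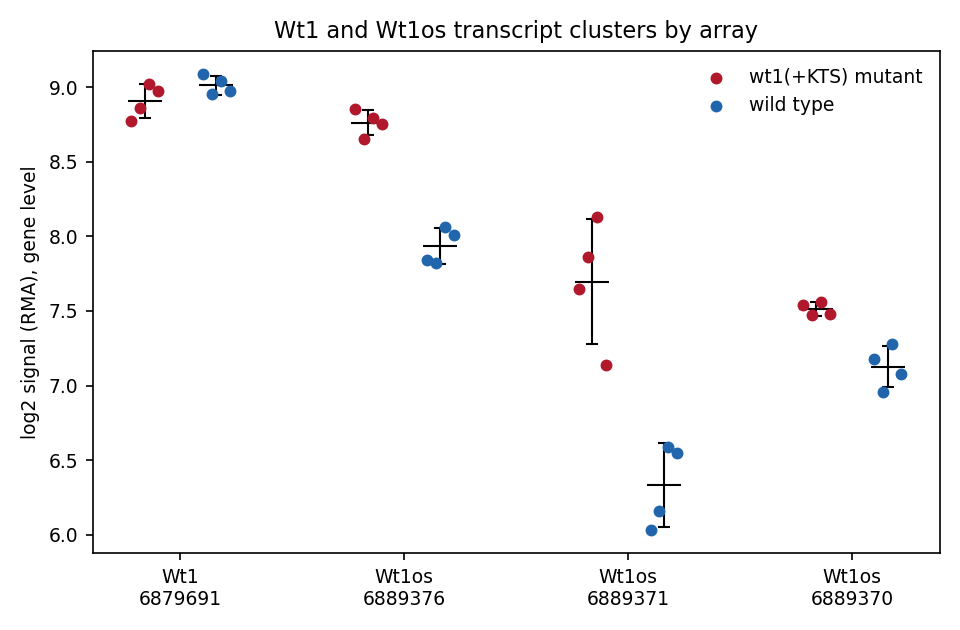
Log2 signal of the Wt1 cluster and the 3 Wt1os clusters in each array, with wt1(+KTS) mutants (red, left of each pair) and wild type (blue, right); black bars give the mean and SD of 4 arrays. The mutant and wild-type points of Wt1 overlap (8.77 to 9.02 and 8.95 to 9.09), and those of all 3 Wt1os clusters are separate.

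The 6 Wt1os probe sets differed among themselves. Limma called 3 of 6 higher in the mutants and none lower (1 higher without mutant replicate 2 or without wild-type replicate 2). Among all probe sets tested 1.46% were called higher and 1.21% lower, and of the probe sets with 1 symbol 2.35% and 1.22%. An unadjusted p under 0.05 was found in 4 of 6, against 19.5% of all probe sets. Probe set 5444878 stood at 10.12, 9.82, 10.12 and 9.92 in the mutants, against 8.94, 8.74, 8.84 and 8.86 in the wild type. It had the smallest p of all Wt1os rows and was called in each of the 8 runs that left out 1 array. Its signal rose 2.22-fold (log2 1.15 ± 0.13 SE, limma adjusted p = 0.00264).

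Probe set 4437524 rose 2.57-fold with the values given for cluster 6889371 (limma adjusted p = 0.0159 at the exon level). Its call was lost without mutant replicate 2 (adjusted p = 0.0524) and without wild-type replicate 2 (0.056). Probe set 4367433 stood at 7.88, 7.38, 7.85 and 7.51 in the mutants, against 6.81, 6.06, 6.96 and 5.80 in the wild type. The wild-type embryos formed a high and a low pair here, with an SD of 0.562 against 0.25 in the mutants. It rose 2.37-fold (log2 1.25 ± 0.26 SE, limma adjusted p = 0.0398). That call was kept only in the run without wild-type replicate 3, and the highest adjusted p of the other 7 runs was 0.112.

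The remaining Wt1os probe sets were not called. Probe set 4727507 stood at 7.57, 7.48, 7.46 and 7.58 in the mutants and at 6.74, 6.89, 7.28 and 7.16 in the wild type, without overlap (difference 0.50 ± 0.15 SE, limma adjusted p = 0.101). The dimmest, 4643322, overlapped between the genotypes at 5.95 to 6.33 in mutant arrays, against 5.57 to 6.50 in wild-type arrays, and its mean lay below the 50th percentile of the exon-level table. Probe set 4447330 was the exception in direction. It stood at 8.72, 8.51, 8.72 and 8.62 in the mutants, against 8.83, 8.81, 8.51 and 9.02 in the wild type. Its difference of −0.15 ± 0.14 (SE) did not pass, and its 95% interval of −0.47 to 0.17 lies wholly below the interval of 0.87 to 1.44 of probe set 5444878.

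**Figure D2:**
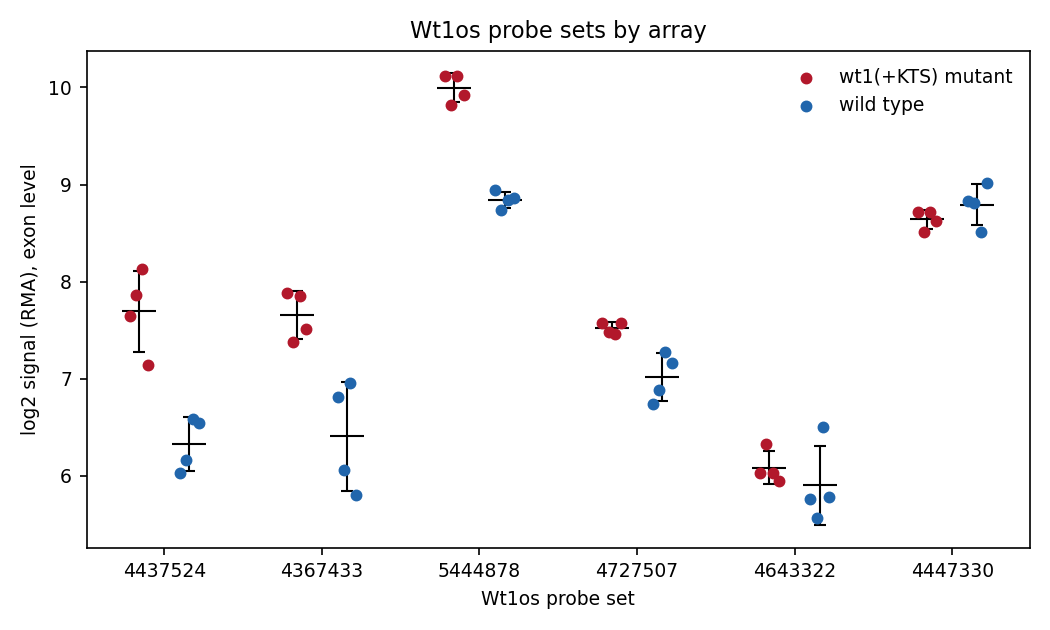
Log2 signal of the 6 Wt1os probe sets in each array, with wt1(+KTS) mutants (red, left) and wild type (blue, right) and the mean and SD of 4 arrays in black. The genotypes are separate in the 4 probe sets on the left, and overlap in 4643322 and 4447330.

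A usage value, a probe set minus the mean of its gene's probe sets on the same array, asked whether single probe sets departed from the rest of Wt1os. Probe set 4447330 had the most negative change, −0.87 ± 0.16 (SE), just short of the threshold (limma adjusted p = 0.054 over 186834 probe sets). Its usage values were 0.61 to 0.83 in mutant arrays, against 1.07 to 1.83 in wild-type arrays, without overlap. None of the 6 passed with limma and 5 had an unadjusted p under 0.05, against 0.481% and 18.1% of all probe sets tested for usage. Each is taken against the mean of the same 6, so a fall in 1 raises the others and the 5 are not separate departures. Without wild-type replicate 3 probe set 4447330 passed (limma −1.04, adjusted p = 0.013). The gene-wise F test of limma's diffSplice treats probe sets that share the 8 arrays as independent values, and 24.9% of 14186 genes passed it. Wt1os passed it (adjusted p = 6e-05), and so did Wt1 (0.0292), which at that share sets Wt1 little apart from other genes.

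For Wt1 the cluster 6879691 stood at 8.77, 8.86, 9.02 and 8.97 in the mutants, against 9.09, 8.95, 9.04 and 8.97 in the wild type. The genotypes overlapped. The 95% interval of the difference ran from −0.35 to 0.14 on the log2 scale, which covers 0.785-fold to 1.10-fold (limma adjusted p = 0.701). A change of Wt1 as large as that of Wt1os lies outside it.

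Among the probe sets of Wt1 no change was called either. Limma called 0 of 20, against 2.67% of all probe sets, and 2 had an unadjusted p under 0.05, against 19.5% of all. At a share of 2.67%, a count of 0 in 20 sets Wt1 little apart. Of the 20, 8 were higher and 12 lower in the mutants, 10 differed by no more than 0.1 on the log2 scale, and the median difference was −0.03, against 0.01 over all probe sets. The 9 probe sets with a mean of at least 10 were steady. The SDs within a genotype were 0.0443 to 0.279 among them, and 7 of the 9 differed by no more than 0.1. The brightest, 5486923, stood at 13.44, 13.19, 13.35 and 13.40 in the mutants and at 13.27, 13.29, 13.31 and 13.37 in the wild type. Its difference was 0.04 ± 0.12 (SE). The 11 dimmer ones spread more, with SDs of 0.0656 to 0.497 and differences of −0.51 to 0.32.

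Among the bright probe sets 4761277 had the largest difference. It stood at 10.66, 11.03, 11.06 and 11.34 in the mutants, against 11.74, 11.46, 11.34 and 11.41 in the wild type. Mutant replicate 4 and wild-type replicate 3 met at 11.34, and the difference of −0.47 ± 0.17 (SE) missed the threshold (limma adjusted p = 0.166). The largest difference of all, −0.51 ± 0.21, belonged to the dimmer 4409533, at 6.63, 7.27, 7.61 and 6.89 in the mutants and 7.70, 7.75, 7.66 and 7.35 in the wild type (adjusted p = 0.22). Probe set 4908361 was higher in every mutant, at 9.07, 8.68, 8.78 and 8.70, against 8.67, 8.33, 8.28 and 8.66 in the wild type. Its difference of 0.32 ± 0.15 (SE) did not pass (adjusted p = 0.279). One more, the dim 5580564, did not overlap (difference −0.22), so 1 of 20 was higher and 1 lower without overlap, against 7.53% and 5.49% of all probe sets.

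**Figure D3:**
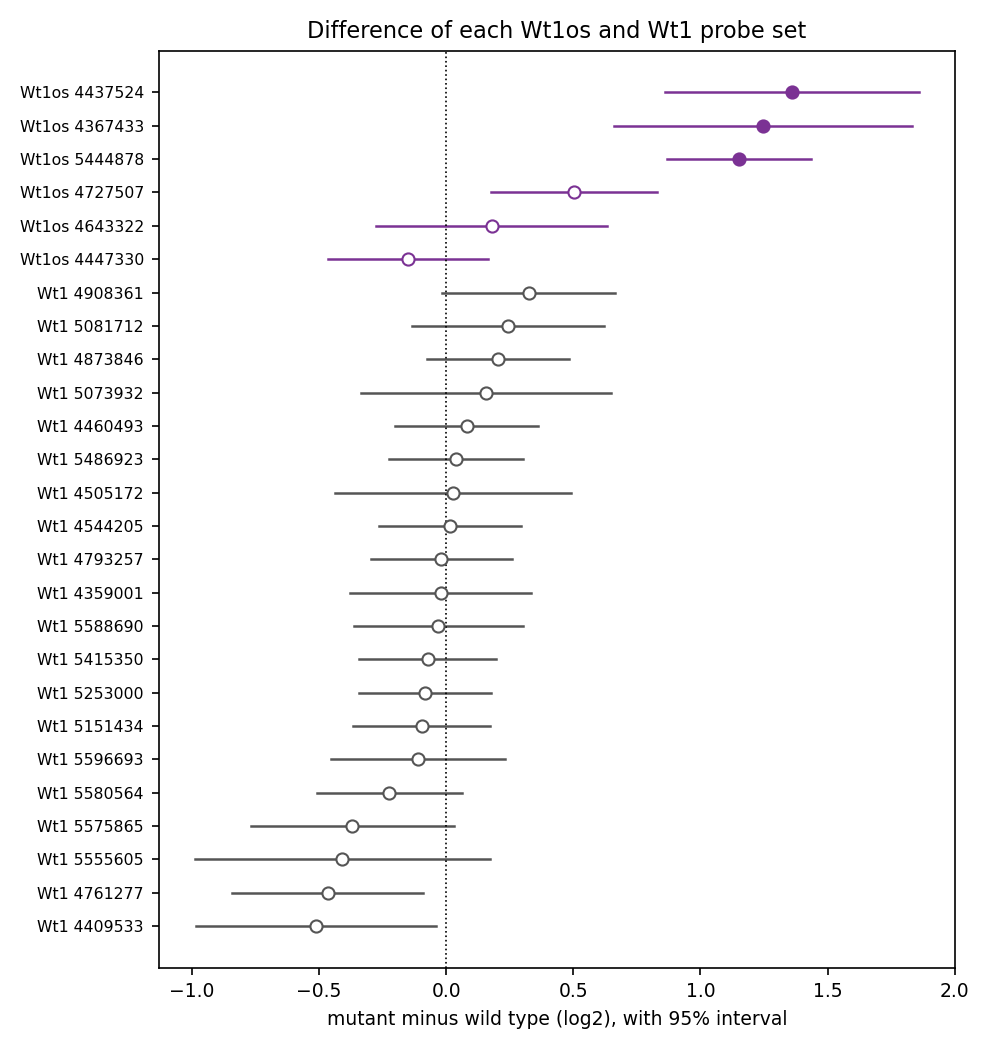
Mutant minus wild type on the log2 scale for each Wt1os probe set (purple) and Wt1 probe set (grey), with 95% intervals from limma and n = 4 arrays per genotype; filled points passed the adjusted threshold of 0.05. The 3 filled points are Wt1os probe sets at 1.15 to 1.36, and the Wt1 probe sets lie between −0.51 and 0.32.

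In usage, 0 of 20 Wt1 probe sets passed with limma and 4 had an unadjusted p under 0.05, close to the 18.1% of all probe sets tested. The usage differences of these 4 were −0.40 ± 0.14 (SE) for 4761277, −0.45 ± 0.19 for 4409533, 0.39 ± 0.14 for 4908361 and 0.27 ± 0.10 for 4873846. The smallest adjusted p was 0.184. Deviations of the 9 bright probe sets from their genotype means moved together over the 8 arrays with a median pairwise r of 0.52, and those of the 11 dimmer ones with 0.0055; these are descriptions of probe sets that share arrays. The exons that these probe sets target were not used here, so they could not be put in genomic order, and none is known to span the KTS insert. These values therefore do not test the splice change itself.

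The change of sense against antisense was then compared directly. The Wt1 cluster minus the main Wt1os cluster was −0.08, 0.21, 0.23 and 0.22 in the mutants and 1.25, 1.13, 0.98 and 0.96 in the wild type. All mutants lay below all wild-type embryos. The change in this value was −0.93 on the log2 scale (exact permutation p = 0.0286, two-sided, n = 4 per genotype), and leaving out each array in turn kept it between −0.97 and −0.86. That p is the smallest that 4 against 4 allows. The Wt1 cluster differed by −0.11 and the Wt1os cluster by 0.83, so the change mostly restates the rise of Wt1os. The value itself depends on the probes of each cluster and does not say which RNA was more abundant. The labels do not say whether labelling kept the strand of the RNA, so signal from overlapping RNA of either strand may not be separable.

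Markers of the cells that carry Wt1 moved with genotype. Over all clusters limma called 0.336% higher and 0.49% lower in the mutants. The 7 podocyte markers averaged 8.22 to 8.48 in mutant arrays, against 8.90 to 9.07 in wild-type arrays, with a median difference of −0.69, and 3 of 7 were called lower. The receptor phosphatase Ptpro (−1.27), the cell cycle inhibitor Cdkn1c (−1.06) and the chloride channel protein Clic5 (−0.80) were those called, of which only Ptpro passed in all 8 fits to 7 arrays; without any 1 of mutant replicates 2 to 4 or wild-type replicates 1 to 3 it was the only marker called. Of these 7 markers 6 also stand in the list of WT1 targets described below, called ones included, so the lists are not separate measures. Wt1 minus that mean was 0.29, 0.64, 0.64 and 0.71 in the mutants and 0.04, 0.04, −0.03 and −0.03 in the wild type. This difference was higher in every mutant than in any wild-type embryo, and its level depends on the probes. The preparations also held RNA of other cells, including tubule, whose markers are given below. In such a mixture, a smaller share of podocytes and less RNA per podocyte cannot be told apart. Nephron progenitors, which also express Wt1, had 5 of 10 markers called higher: the transcription factor genes Eya1 (1.17), Meox2 (1.203), Six2 (0.96) and Uncx (0.60), and Crym (0.79). The count was 3 without any 1 of mutant replicates 2 to 4 or wild-type replicates 1 and 2, when Crym and Uncx were lost. Averaged over the list, the 10 markers reached 7.84 to 8.02 in mutant embryos, against 7.43 to 7.52 in wild-type embryos. Of these 10, 8 were higher and 2 lower. The lower ones were Itga8 (−0.45, limma adjusted p = 0.146), which also stands in the mesangial list, and Cited1 (−0.02), neither called. Parietal epithelium markers averaged 8.07 to 8.22 in mutant arrays, against 7.63 to 7.87 in wild-type arrays (2 of 8 called higher, the keratin Krt19 at 1.30 and the adhesion receptor Cd44 at 0.87, with Cd44 lost without mutant replicates 2 or 3 or wild-type replicates 1 or 2). Of the 8 parietal markers 6 were higher and 2 lower. The lower ones were Wnt16 (−0.51, limma adjusted p = 0.0542) and Dkk3 (−0.10), neither called. Markers of the proximal tubule stood at 8.07 to 8.40 in mutants and 8.94 to 9.18 in wild type (5 of 8 called lower). They were the dipeptidase Dpep1 (−1.09), the transporters Slc13a3 (−1.46), Slc34a1 (−0.79) and Slc5a2 (−0.57), and the scaffold Pdzk1 (−1.06). Without mutant replicate 3 or wild-type replicate 2 Dpep1 alone was called, without mutant replicates 1 or 2 or wild-type replicates 1 or 3 the count was 2, and without mutant replicate 4 it was 3. Those of the glomerular endothelium stood at 8.88 to 8.96 in mutants and 9.21 to 9.39 in wild type (1 of 10 called lower, Ehd3 at −1.26). Mesangial and renin cell markers stood at 8.71 to 8.86 in mutants and 8.87 to 9.05 in wild type (0 of 7 called by limma, 2 with an unadjusted p under 0.05, against 14.3% of all clusters). Leukocyte markers stood at 6.51 to 6.65 in mutants and 6.76 to 6.97 in wild type (0 of 6, likewise 2). The part of these shifts in the Wt1 and Wt1os values was not tested.

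Genes known as targets of WT1 in podocytes fell in part. Limma called 7 of the 21 measured targets lower and none higher. It called 0.49% of all clusters and 0.594% of those with 1 symbol lower. At an unadjusted p under 0.05, 13 targets were lower and 2 higher. In either direction, 14.3% of all clusters had such a p, and 23.5% when only clusters with 1 symbol were tested. The median difference was −0.37, against −0.03 over all clusters. The target list, like the other lists, was chosen with earlier results of these data known, so its counts beside those shares are a description. Col4a3 (−1.38 ± 0.12 SE) and Col4a4 (−0.96 ± 0.098), chains of the mature glomerular basement membrane, were called, as were the semaphorin Sema3g (−1.15 ± 0.14), Rhpn1 (−1.38 ± 0.18), a podocyte protein, Ptpro, Clic5 and Cdkn1c. Among those, Clic5 kept its call only without mutant replicate 1 or wild-type replicate 4 (adjusted p up to 0.0905 otherwise), Cdkn1c only without mutant replicate 1 (up to 0.0912), and the others in all 8 fits to 7 arrays. In all, 15 of the 21 were lower and 6 higher. Not called were the matrix sulfatase Sulf1 (0.42) and Scel (0.30), both higher, and the actin protein Synpo (−0.69), the growth factor Vegfa (−0.47), Nphs1 (−0.48) and the transcription factors Lmx1b (−0.06) and Tcf21 (−0.06).

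The genes listed as regulators of Wt1 transcription leaned the other way. Of 14 measured members 2 were called higher and 0 lower, against 0.336% of all clusters called higher, and the median difference was 0.29. Eya1 (1.17 ± 0.12 SE, limma adjusted p = 0.00387) and Six2 (0.96 ± 0.11, adjusted p = 0.00686), which act in nephron progenitors and also stand in the progenitor list, rose, and both passed in all 8 fits to 7 arrays. Hoxa11 (0.61), Pax8 (0.37) and Pax2 (0.29), transcription factors of the developing kidney, did not pass.

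Partners and modifiers of WT1 were not called. Limma called 0 of 19 and 0 had an unadjusted p under 0.05, against 0.827% and 14.3% of all clusters, so a count of 0 calls sets a list of this size little apart. The median difference was 0.03. They include the splicing proteins with which WT1 has been linked: U2af2 differed by 0.15, Wtap by −0.04, Srsf1 by 0.03, Srpk1, a kinase of splicing factors, by 0.11, Rbm4 by −0.22 and Rbm4b by 0.32. The chaperone Hspa4 differed by 0.19 and Amer1, a Wnt pathway inhibitor, by −0.21. Zinc finger relatives of WT1 likewise had 0 of 7 called by limma and 2 with an unadjusted p under 0.05, Egr3 (0.61) and Egr2 (0.50), immediate early genes whose proteins bind related sites. Sp1 differed by 0.29 and Klf6 by 0.19.

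**Figure D4:**
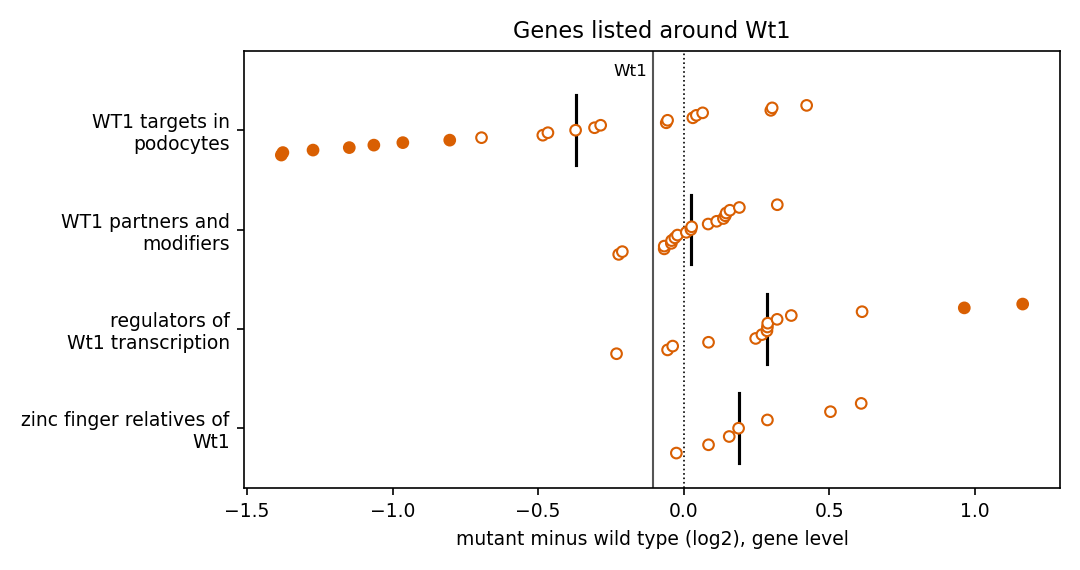
Mutant minus wild type on the log2 scale at the gene level for the members of the 4 lists around Wt1; each point is a gene, filled where it passed the adjusted threshold of 0.05, black bars are list medians and the grey line marks Wt1 at −0.11. The filled points are the 7 targets between −1.38 and −0.80 and the 2 regulators at 0.96 and 1.17.

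The nearest measured genes along chromosome 2 were also mixed. On the Wt1os side Prrg4, a membrane protein with a Gla domain, rose by 0.92 ± 0.14 (SE, limma adjusted p = 0.0202), while Eif3m, a translation initiation factor, differed by −0.50 and Ccdc73 by 0.08 without passing. On the Wt1 side Them7 fell by 1.28 ± 0.21 (adjusted p = 0.0274), while Rcn1 (0.03) and Pax6os1 (−0.20) did not pass. Ccdc73 and Pax6os1 were dim, above only 21.9% and 30.0% of all clusters, so their small differences say little. Prrg4 was no longer called (adjusted p up to 0.0772) without mutant replicates 1, 2 or 3 or wild-type replicates 1 or 2, and Them7 (up to 0.0916) without mutant replicates 2, 3 or 4 or wild-type replicates 2 or 3.

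Over the 8 arrays, the patterns most like the Wt1 cluster among 3154 clusters that varied and were not dim belonged to Utf1 (Pearson r = 0.937), Airn (0.880), Olfr1153 (0.873), Dock5 (0.871) and Redrum (0.863). None of these 5 was called between the genotypes. They are the highest of 3154 r values over only 8 arrays. Whether such a search would give r of this size without any real likeness was not tested. Those most like the main Wt1os cluster belonged to Kcna1, a potassium channel gene (0.995), Bloc1s6 (0.990), Cnksr2 (0.988), Ptprv (0.987) and Zc4h2 (0.985). In each of them all mutants lay above all wild-type embryos, and limma called all but Zc4h2. With groups that do not overlap, such an r mainly restates the difference between the genotypes, so it is given as a description only.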

How the data were processed

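The authors deposited log2 values; RMA, Partek and mm9 are named per the submitters' processing notes, with versions not given in the sources used here. Their log base was inferred from the range of 3.57 to 14.9. RMA pulls dim rows toward a floor. Array data have no read depth, so the number of arrays limits the precision. Symbols came from the platform annotation, updated through RefSeq (GRCm38.p6), which served otherwise only for the order of genes and the printed sequence.

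Limma 3.58.1 in R 4.3.3 (lmFit, eBayes, two-sided) was fitted to every row, Benjamini-Hochberg adjusted over each table, and rows with an adjusted p under 0.05 are called. Usage was fitted over genes with 1 symbol and at least 3 probe sets. Exact permutation tests ran over the 8 arrays in Python 3.11.15. The p-values set the difference between the genotypes against the variation between these samples. A listed gene with several clusters took the brightest one. Members and lists were chosen with earlier results of these data known. The rule names each called list member and the 4 of smallest p. In the marker lists only called members and Wnt16, Dkk3, Itga8 and Cited1 are named. Synpo, Vegfa, Nphs1, Sulf1, Scel, Lmx1b, Tcf21, Pax2, the splicing proteins and the neighbours were named after their values were seen, as were Wnt16, Dkk3, Itga8 and Cited1. Some listed genes were not analysed here. The planned correlation of Wt1 with Wt1os is not given, because the genotypes form separate clusters in Wt1os. Tested on simulated data, limma recovered 12% of rows changed 1.5-fold, 50% of those changed 2-fold and 93% of those changed 4-fold among 93623 clusters, 1.5%, 30.5% and 84.5% among 375483 probe sets, and 5%, 41.5% and 92% for usage (186834 rows). Alternatives are given in the closing section.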

Additional observations from a re-analysis of the deposited data

How the results depend on the processing

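The direction of both genes' cluster differences held in all 17 alternatives each. The Wt1 cluster was never called (−0.14 to −0.06), nor was any Wt1 probe set, in level or usage. The main Wt1os cluster, 0.79 to 0.87 without 1 array, kept its call in 8 of 9 other settings. With the replicate number as a block (replicate block) it missed the threshold (0.83, adjusted p = 0.0631), and the paired sign-flip test of Wt1 minus Wt1os (−0.93) gave an exact p of 0.125, the smallest 4 pairs allow. The labels do not say whether same-numbered arrays share more than a number. Their deviations correlated at −0.0048, 0.069, 0.263 and 0.204. Mutant replicates 3 and 4 matched the wild-type array of the same number best, and replicates 1 and 2 matched wild-type replicates 4 and 3. Whether a litter or batch was shared was not tested. The block left 185 called clusters, against 774 without it. The count of called Wt1os probe sets was 1 to 3 without 1 array and 1 with the code letter as a random block. Usage calls in Wt1os numbered 0 as reported, and were 0 to 1 without 1 array (1 without wild-type replicate 3), 1 with trend and robust options, with array weights and among rows at or above the 50th percentile, and 2 with diffSplice. Testing only clusters with 1 symbol raised called WT1 targets from 7 to 11 and called regulators from 2 to 4, where the block gave 1; it also added 1 zinc finger relative and Wt1os cluster 6889370 (0.39). Over whole tables, 774 called clusters compared with 259 under the letter block, 1311 with array weights, 1408 among clusters with 1 symbol, 2102 from means of probe sets, 1199 above the 50th percentile and 268 to 758 without 1 array. The 10035 called probe sets compared with 2803 under the letter block, 16875 with trend and robust options, 15378 with array weights and 3513 to 9913 without 1 array. The 898 usage calls compared with 157 under the block, 130 under the letter block, 2018 with array weights, 1349 with trend and robust options, 423 against the gene's median, 5404 with diffSplice and 140 to 1743 without 1 array. The cause of these changes was not tested. Most rows changed 1.5-fold went undetected in the simulation, which changed 200 rows of each table by each size. The adjusted threshold depends on how many rows change, and limma called 774 clusters and 10035 probe sets here. The recovery shares therefore do not carry over directly to the data, and changes of 1.5-fold in single rows may still have been missed. For the Wt1 cluster, the interval of the difference, 0.785-fold to 1.10-fold, leaves out a 1.5-fold change in either direction.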
